A study of Mus musculus with 6 samples.

Results

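Oxidative phosphorylation is carried out by 5 protein complexes of the inner mitochondrial membrane, and the transcripts of their subunits were compared here between immune cells from 2 organs, the spleen and the gut-draining mesenteric lymph node (mLN). Members were taken by symbol. They are the protein-coding rows of the deposited gene tables whose GENCODE M21 symbol begins with Ndufa, Ndufb, Ndufc, Ndufs, Ndufv, Sdh, Uqcr, Cox4 to Cox8, Atp5, mt-Nd, mt-Co, mt-Atp or mt-Cytb, with Cox6a2 left out. The rule found 110 genes among 55487 rows, of which 21974 were protein-coding. Of the 110, 97 lie in the nuclear genome and 13 in the mitochondrial genome. By complex there were 51 members in complex I, 8 in II, 9 in III, 22 in IV and 20 in V. The symbols also bring in 12 assembly factors (8 named Ndufaf, 4 named Sdhaf), which help to build complexes I and II and are not part of them, the supercomplex factor Cox7a2l, and Atp5s, which is not counted as a subunit here. Ndufa4 and Ndufa4l2 were placed in complex IV, since the Ndufa4 protein is now assigned there.

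The RNA came from total CD45+ cells, that is, hematopoietic cells of every kind that carry this leukocyte antigen. They were sorted fresh from wild-type (WT) mice of the strain C57BL6/J, with 3 libraries from spleen and 3 from mLN, and the libraries were made from polyA RNA with a strand-keeping kit. No age, sex or pooling of animals is given in the labels, and no label says that the replicates came from separate mice, so every p-value reflects the spread among these libraries alone, which may be technical. The libraries held 12584244 to 18119551 expected counts. Each sample is a mixture of cell types, so fewer cells of a type and less RNA per cell cannot be told apart.

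Complexes I, III and IV pump protons while electrons pass from NADH to oxygen, complex II feeds in electrons from succinate without pumping, and complex V (ATP synthase) lets the protons flow back to make ATP. Every complex except II mixes subunits from both genomes, so that its assembly draws on nuclear transcripts translated in the cytosol and on mitochondrial transcripts translated inside the organelle. Resting lymphocytes are known to rely largely on oxidative phosphorylation, and activated lymphocytes add glycolysis.

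Among mitochondrial members 6 of 13 were higher in mLN, each by less than 1.2-fold, and the count rose to 10 when each gene was summed with its near-identical nuclear copy. Nuclear members changed in both directions by small amounts: of 90 that could be tested, 15 were higher and 8 lower in mLN. In all, 45.5% of the 14427 genes tested were called in either direction (21.8% higher and 23.8% lower), against 25.6% of the nuclear and 46.2% of the mitochondrial members. A gene was called when its Benjamini-Hochberg adjusted p from edgeR's quasi-likelihood test was under 0.05 over all genes tested, and every adjusted p below is from that test unless another is named. No mitochondrial member was called lower by edgeR with its scaling factors. At an unadjusted p under 0.05, edgeR had 8 mitochondrial members, all with a higher fitted level in mLN, while limma with voom called 1 member, mt-Co3, lower. The nuclear split depended on the scaling: with library totals and no scaling factors, 8 nuclear members were higher and 15 lower. The mitochondrial count with library totals became 5 higher and 1 lower (mt-Nd6). The calls of Atp5h, Atp5j2, Ndufa3, Ndufa4, Ndufs1, Ndufs4, Sdha and mt-Cytb were lost there. With effective lengths as an offset, 5 nuclear members were higher (Cox7a2l, Ndufa3, Ndufaf4, Ndufb3 and Ndufv3) and 2 lower (Cox5b and Cox6b2), and DESeq2 called 4 lower. Leaving out 1 library cut the 8 lower calls to 5 (without spleen replicate 1), 3 (without spleen replicate 2) or 4 (without spleen replicate 3).

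**Figure D1:**
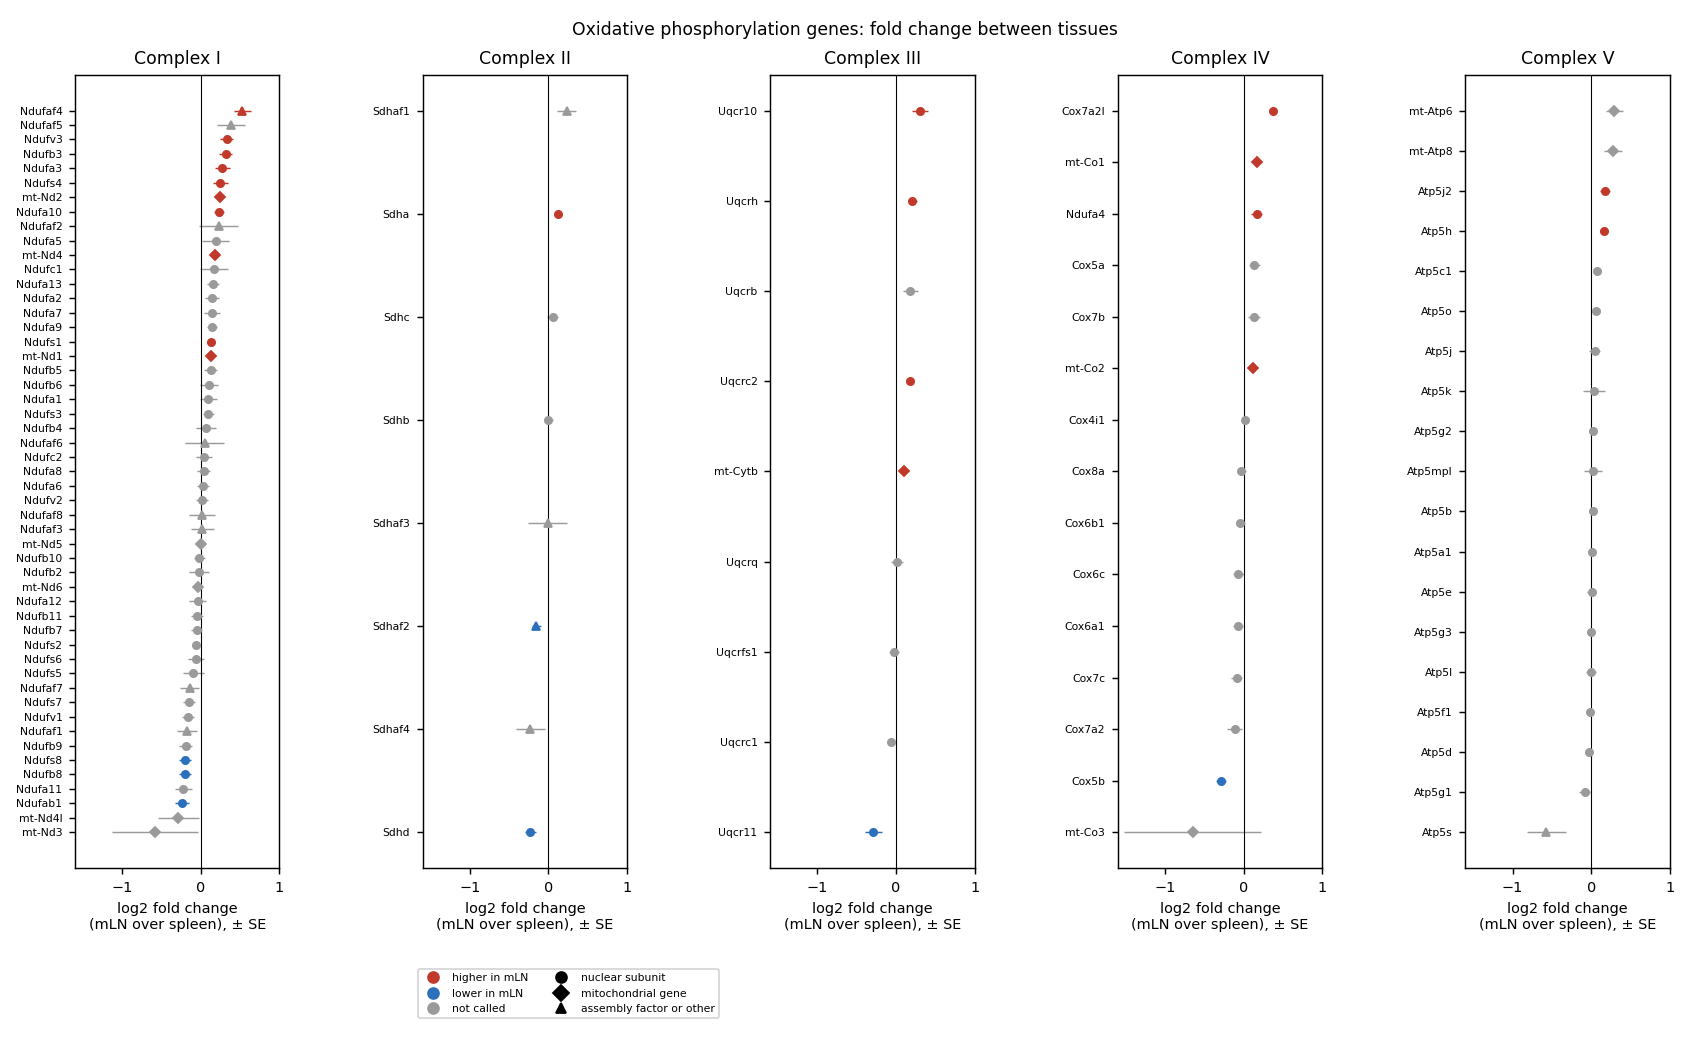
Log2 fold change (mLN over spleen, horizontal axis) with its standard error for each tested member except Cox6b2 (-2.38), by complex. Red points passed the test as higher in mLN, blue points as lower, grey points did not pass; circles are nuclear subunits and Cox7a2l, diamonds mitochondrial genes, and triangles assembly factors or Atp5s. Most nuclear points sit near 0, and the wide bars of mt-Co3, mt-Nd3 and mt-Nd4l belong to genes with a nuclear copy.

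The spread of the nuclear members was narrow. Their median log2 fold change was 0.02, with quartiles of -0.06 and 0.14, where all tested genes had a median of -0.002 and quartiles of -0.31 and 0.21. Of the 90 nuclear members tested, 79 (87.8%) had a fitted change under 1.2-fold, against 52.2% of all genes. Restricting both to genes with a mean of at least 10 CPM (counts rescaled to a total of 1000000, here with edgeR's TMM factors), the shares were 90.0% of 80 members and 65.3% of 9295 genes. Without that limit, some other lists of nuclear genes for mitochondrial proteins had similar shares. These were 88.5% of 78 mitochondrial ribosomal protein genes, 88.2% of 17 citric acid cycle genes and 87.5% of 24 outer membrane and import genes. Complex I assembly genes outside the rule had a higher share. Other such lists had lower ones, down to 62.5% of 8 complex III and cytochrome c genes. The narrow spread was thus not particular to the members. Only 1 member, Cox6b2, changed by 1 or more on the log2 scale, against 1966 of the 14427 genes. The summed nuclear members took 0.567%, 0.572% and 0.569% of counts in the spleen libraries and 0.567%, 0.564% and 0.562% in the mLN libraries. Their share on a length-corrected scale, given below, was lower in mLN without overlap.

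**Figure D2:**
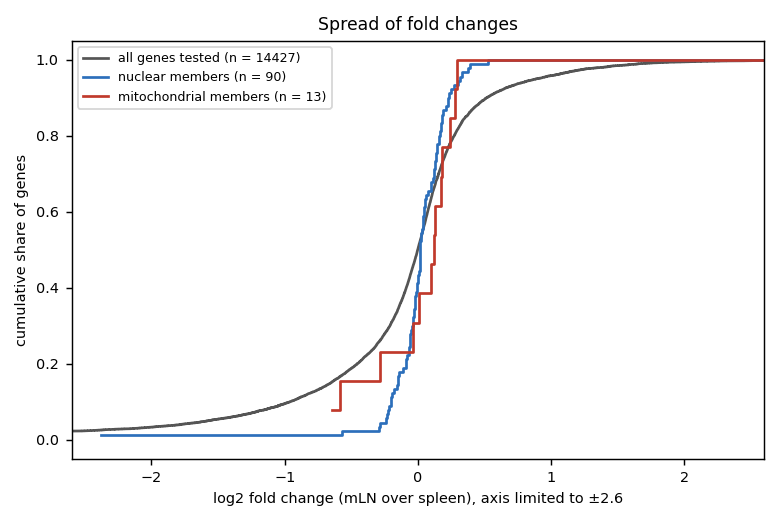
Cumulative share of genes (vertical axis) at or below each log2 fold change (mLN over spleen, horizontal axis), for 14427 genes tested, 90 nuclear members and 13 mitochondrial members. The nuclear members form a steep curve around 0, with 87.8% under 1.2-fold, while the curve of all genes has long tails on both sides.

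The cell mixture itself differed between the tissues. All 18 pan-T markers tested were higher in mLN, their summed level going from 2277-2295 CPM in spleen to 5395-5471 CPM in mLN, and all 16 pan-B markers were lower, from 8481-8606 to 4948-5060 CPM. All 19 erythroid markers were lower (2960-3049 to 119.7-127.3 CPM, with Car1, Kel and Rhag among those at 0 in mLN), as were all 15 neutrophil markers (1718-1756 to 19.76-20.7 CPM, with Elane and Ly6g at 0). Proliferation genes were lower in 20 of 20 (1948-2019 to 1130-1194 CPM) and plasma cell markers in 10 of 11 (1485-1496 to 635.6-657.5 CPM). Of 15 macrophage and monocyte markers 4 were higher and 6 lower, and of 13 dendritic cell markers 3 were higher and 9 lower. Of 15 dissociation stress genes 11 were higher and 2 lower (2045-2121 to 2943-3011 CPM), and of 6 stromal and endothelial markers tested 3 were lower (215.3-218.2 and 209.9-232.5 CPM, with Pdgfra and Pdpn at 0 in both tissues). The part of these differences in the results below was not tested.

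On the TPM scale (the deposited length-corrected abundance, which sums to 1000000 in each library), the nuclear subunits of complexes I and II were the least abundant. Their median levels in spleen were 93.5 ± 3.94 and 91.5 ± 1.14 TPM (SD, n = 3), a difference within the spread among libraries. The SD of a median does not measure the spread among the subunits of a complex. Complex III followed at 125 ± 7.58 TPM, and complexes IV and V stood at 212 ± 4.10 and 218 ± 6.68 TPM, again within their spread of each other. In mLN the medians were 89.9 ± 1.42 TPM for complex I, 82.6 ± 3.28 for II, 121 ± 8.54 for III, 191 ± 4.93 for IV and 214 ± 11.6 for V. The mLN libraries did not overlap between complexes I and II, nor between IV and V. The tissues did not overlap in the medians of complexes II and IV, which were lower in mLN. For complex II that median rests on 4 subunits. Its share of counts overlapped between tissues, with 0.04439% to 0.04532% in spleen and 0.04475% to 0.04516% in mLN. The share of complex IV was lower in mLN as well, with 0.07549% to 0.07789% in spleen and 0.07293% to 0.07339% in mLN. Neither shares of counts nor TPM use edgeR's TMM factors, which were 1.02 in each spleen library and 0.982 to 0.984 in mLN. Those factors would bring the tissues closer in the share of complex IV. With them, the median log2 fold change of its 12 tested nuclear subunits was -0.05. The most abundant nuclear members were Atp5b, the catalytic beta subunit of ATP synthase, at 943 TPM in spleen and 856 TPM in mLN, and Cox4i1, the ubiquitous form of cytochrome c oxidase subunit 4, at 648 and 633 TPM.

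**Figure D3:**
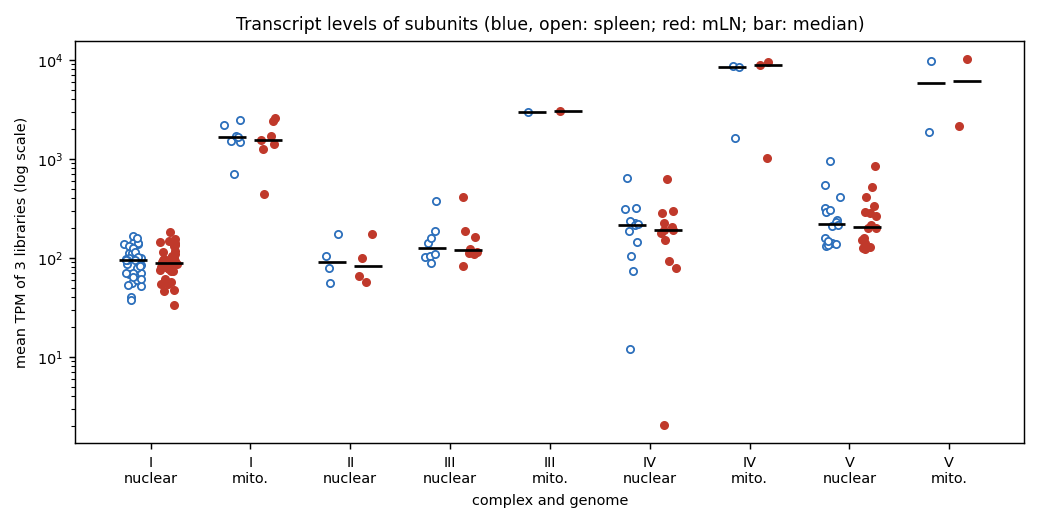
Mean TPM of the 3 libraries of each tissue (vertical axis, log scale) for every tested structural subunit, by complex and genome, with open blue circles for spleen, filled red circles for mLN and bars for medians. Mitochondrial subunits lie above nuclear ones in complexes I, III, IV and V, and the lowest complex IV points are Cox6b2.

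Mitochondrial subunits stood well above nuclear subunits of the same complex. The ratio of their median TPM in complex I was 16.3, 17.9 and 16.2 in spleen and 16.4, 17.8 and 17.4 in mLN, so the tissues overlapped. With mitochondrial genes summed with their chromosome 1 copies, which are described below, it was 17.9, 17.9 and 17.8 in spleen and 18.5, 19.2 and 19.6 in mLN, with no overlap. For complex IV the ratio was 41.4, 38.9 and 40.1 in spleen and 44.2, 46.1 and 48.4 in mLN, with every mLN library above every spleen library. Its mitochondrial median rests on 3 genes and was the value of mt-Co2 in each library. Complex III had ratios of 22.4 to 25.9 and 22.8 to 27.5, and complex V of 24.7 to 29.2 and 26.8 to 30.4, both overlapping. These rest on 1 mitochondrial gene for complex III and 2 for complex V. With copies summed, the complex V ratio was 38.2 to 43.6 in spleen and 41.1 to 45.7 in mLN, which still overlapped. Counts of mitochondrial members made up 1.93%, 1.98% and 2.002% of the spleen libraries and 2.02%, 2.07% and 2.14% of the mLN libraries. Their share of TPM overlapped between tissues, with 4.387%, 4.597% and 4.541% in spleen and 4.476%, 4.601% and 4.752% in mLN. The share of TPM of the nuclear members did not overlap, with 1.297%, 1.289% and 1.295% in spleen and 1.277%, 1.255% and 1.261% in mLN.

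Mitochondrial transcripts are copied from the heavy strand as long precursors and cut into separate RNAs, with mt-Nd6 the 1 protein gene that is read from the opposite strand. The genes encoding complex I membrane subunits did not move as 1 block. mt-Nd2 (chrM:3914-4951, GRCm38) was at 809, 808 and 876 CPM in spleen and 963, 991 and 993 CPM in mLN, which gave a fitted change (mLN over spleen, log2 scale, as in all brackets below) of 0.24 (SE 0.03, adjusted p = 1.388e-09). mt-Nd4 went from 1694, 1687 and 1781 CPM to 1925, 1964 and 1960 CPM (0.18, SE 0.02, adjusted p = 1.141e-08). Summed with its identical chromosome 1 copy, Gm28439, which held counts only in spleen, mt-Nd4 changed by 0.16 (SE 0.02, adjusted p = 1.355e-07). mt-Nd1 went from 1181, 1198 and 1265 CPM to 1311, 1331 and 1340 CPM (0.13, SE 0.02, adjusted p = 3.603e-05). In all these genes the tissues were separate. mt-Nd5, the longest of the 7, was at 1580, 1550 and 1629 CPM in spleen and 1565, 1568 and 1640 CPM in mLN (0.00, SE 0.02, adjusted p = 0.9108). mt-Nd6 was at 319, 334 and 353 CPM and at 318, 338 and 324 CPM (-0.04, SE 0.03, adjusted p = 0.404). With library totals alone, mt-Nd6 was called lower. mt-Nd5 and mt-Nd6 overlapped between tissues and share 14 exon bases on opposite strands, so their reads cannot be told apart there unless strand was used in counting.

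Of the cytochrome genes, mt-Co1 (chrM:5328-6872), the catalytic subunit of complex IV, was at 7689, 7703 and 7983 CPM in spleen and 8684, 8746 and 8912 CPM in mLN. Its log2 fold change was 0.17 (SE 0.02, adjusted p = 6.054e-11). mt-Co2, which takes electrons from cytochrome c, rose from 2655, 2638 and 2667 CPM to 2849, 2826 and 2974 CPM (0.12, SE 0.02, adjusted p = 8.401e-06). mt-Cytb, the only mitochondrial subunit of complex III, rose from 1807, 1828 and 1871 CPM to 1931, 1916 and 2045 CPM (0.10, SE 0.02, adjusted p = 0.0006729). The call of mt-Cytb was lost with library totals alone. mt-Atp8, a short subunit of complex V, was at 75.2, 95.2 and 101 CPM in spleen and 113, 108 and 108 CPM in mLN (0.28, SE 0.11, adjusted p = 0.09492), which did not pass although the tissues did not overlap. It shares 43 exon bases on the same strand with the more abundant mt-Atp6, so its counts also depend on how shared reads were divided.

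The 4 other mitochondrial members, mt-Co3, mt-Atp6, mt-Nd3 and mt-Nd4l, could not be read alone. In all, 7 mitochondrial members have a near-identical unprocessed pseudogene on chromosome 1 (all within chr1:24611535-24616197), a stretch of mitochondrial DNA in the nuclear genome. The transcript of mt-Co3 (chrM:8607-9390) matched Gm28437 (chr1:24613189-24613971) at 100% over 783 bases, and mt-Atp6 matched Gm10925 at 100% over 678 bases. The transcript of mt-Nd3 had 1 mismatch to Gm28438 over 345 bases. Matching stretches of each pair, from GENCODE M21 transcripts, are shown because reads from the identical pairs cannot be told apart; the capitals mark the 1 differing base of mt-Nd3, T3C, counted from the transcript's 5′ end:
mt-Co3: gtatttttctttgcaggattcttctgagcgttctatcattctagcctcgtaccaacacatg
Gm28437: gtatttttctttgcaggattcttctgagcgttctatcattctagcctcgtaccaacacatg
mt-Atp6: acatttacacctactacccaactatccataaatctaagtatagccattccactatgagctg
Gm10925: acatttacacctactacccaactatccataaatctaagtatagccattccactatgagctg
mt-Nd3: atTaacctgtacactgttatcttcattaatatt
Gm28438: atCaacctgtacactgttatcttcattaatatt

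Taken alone, mt-Co3 was at 563, 912 and 396 CPM in spleen and 74.6, 408 and 721 CPM in mLN, an erratic set with a log2 fold change of -0.65 (SE 0.87, adjusted p = 0.6193). Its copy was at 1509, 1139 and 1696 CPM and at 2108, 1849 and 1555 CPM. The sums were even: 2072, 2051 and 2092 CPM in spleen and 2183, 2256 and 2276 CPM in mLN, and in the fit on sums, chosen after seeing the data, the log2 fold change was 0.11 (SE 0.02, adjusted p = 3.395e-05). Summed values of mt-Atp6 were 2392, 2440 and 2532 CPM and 2765, 2783 and 2828 CPM (0.19, SE 0.02, adjusted p = 1.361e-09), where mt-Atp6 alone had 0.29 (SE 0.11, adjusted p = 0.09448). For mt-Nd3 the sums of 111, 105 and 121 CPM and 118, 121 and 133 CPM overlapped, and the change turned from -0.58 (SE 0.55, adjusted p = 0.4672) to 0.15 (SE 0.05, adjusted p = 0.0149). For mt-Nd4l, whose copy is Gm10222, the change turned from -0.28 (SE 0.26, adjusted p = 0.4518) to 0.27 (SE 0.05, adjusted p = 3.029e-05). With sums, 10 of 13 mitochondrial members were higher, and mt-Nd5, mt-Nd6 and mt-Atp8 were the 3 that did not pass. With copies included, the mitochondrial share was 2.29%, 2.30% and 2.39% of counts in spleen and 2.45%, 2.47% and 2.52% in mLN, with no overlap.

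**Figure D4:**
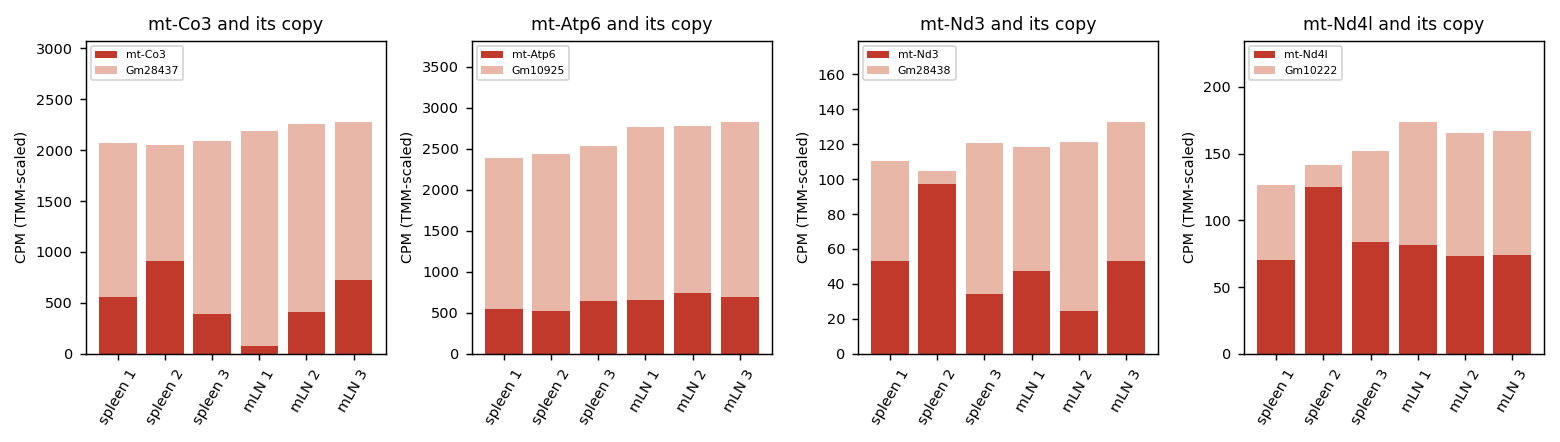
CPM of 4 mitochondrial genes (dark) and of their chromosome 1 copies (light), stacked by library, on linear axes from 0. The split between gene and copy varied from library to library, and the stacked heights of mt-Co3, 2051 to 2276 CPM, varied far less.

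**Figure D5:**
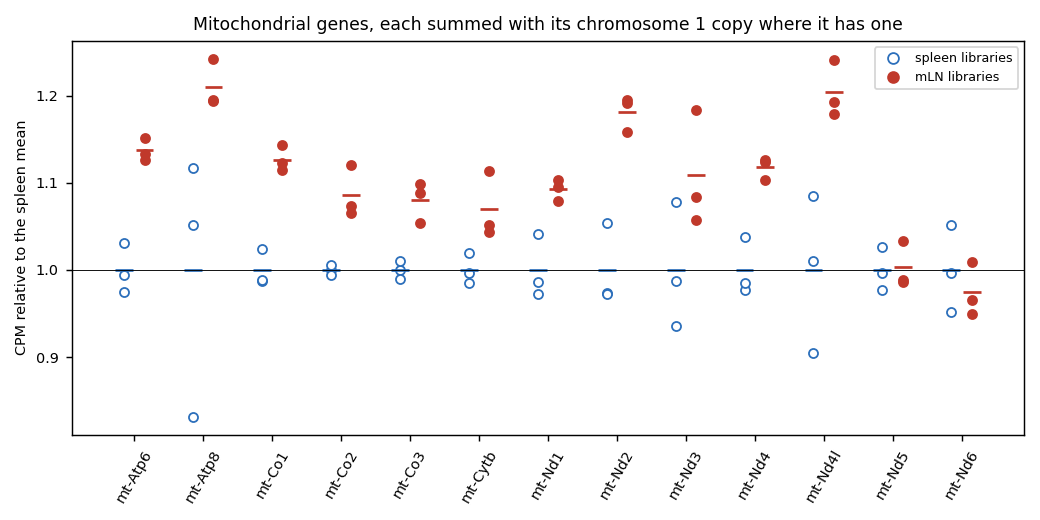
CPM of each mitochondrial member relative to its spleen mean, summed with its chromosome 1 copy where it has one; open circles are spleen libraries, filled circles mLN libraries, and bars are means of 3. mt-Nd5 and mt-Nd6 overlap between tissues, while most other members lie higher in mLN.

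Complex I has 36 nuclear structural subunits in the set, and all were tested: 6 were higher and 3 lower, with a median log2 fold change of 0.04. The largest rises were in accessory subunits, which surround the catalytic core. Ndufv3 (chr17:31520115-31531331), in the arm that takes in NADH's electrons, was at 28.3, 26.3 and 30.6 CPM in spleen and 35.0, 34.3 and 38.1 CPM in mLN (0.33, SE 0.08, adjusted p = 0.001054). Ndufb3 (chr1:58586384-58595964), in the membrane arm, went from 27.0, 25.3 and 25.1 CPM to 32.9, 30.8 and 32.8 CPM (0.32, SE 0.09, adjusted p = 0.002133). In both genes every mLN library was above every spleen library. Ndufs4, an accessory subunit whose loss causes Leigh syndrome, rose by 0.25 (SE 0.10, adjusted p = 0.03016), and Ndufa10 rose by 0.23 (SE 0.06, adjusted p = 0.00225). Ndufa3 rose by 0.27 (adjusted p = 0.01842), though its tissues overlapped. Among the 7 nuclear core subunits, which hold the flavin and the iron-sulfur clusters, Ndufs1 rose by 0.13 (adjusted p = 0.03365) and Ndufs8 was lower, from 40.3, 40.2 and 41.2 CPM to 34.2, 38.4 and 33.0 CPM (-0.20, SE 0.08, adjusted p = 0.03205). Ndufab1, the mitochondrial acyl carrier protein that also serves fatty acid synthesis, was lower by -0.24 on the log2 scale (adjusted p = 0.03018), and Ndufb8 by -0.20 (adjusted p = 0.03421), but the tissues overlapped in both. Ndufs8 lost its call in 5 of the 6 fits that each left out 1 library (all but mLN replicate 2; adjusted p up to 0.130), Ndufb8 in 4 (spleen replicates 2 and 3, mLN replicates 1 and 3; up to 0.165) and Ndufab1 in 4 (spleen replicates 2 and 3, mLN replicates 1 and 2; up to 0.352, with a change of -0.12 to -0.36). Ndufs1 lost its call in 4 (spleen replicates 1 and 2, mLN replicates 1 and 2; up to 0.144), Ndufs4 in 3 (spleen replicates 2 and 3, mLN replicate 2; up to 0.175) and Ndufa3 in 3 (spleen replicate 2, mLN replicates 2 and 3; up to 0.142). Ndufv3, Ndufb3 and Ndufa10 passed in all 6.

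Complex I assembly factors held the largest rise of any member. Ndufaf4 (chr4:24898083-24905001, ENSMUSG00000028261) was at 16.0, 21.2 and 19.4 CPM in spleen and 24.4, 29.4 and 27.5 CPM in mLN. The log2 fold change was 0.53 (SE 0.11, adjusted p = 5.431e-05), and the tissues did not overlap. None of the other 7 Ndufaf genes passed. Ndufaf5 was closest at 0.39 (SE 0.18, adjusted p = 0.07356).

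Complex II, which is also the succinate dehydrogenase of the citric acid cycle, has 4 subunits. Sdha, the flavin-bearing catalytic subunit, was at 275, 272 and 278 CPM in spleen and 292, 299 and 305 CPM in mLN (0.12, SE 0.03, adjusted p = 0.001947). Sdhd, 1 of the membrane anchors, moved the other way, from 55.8, 51.4 and 55.3 CPM to 48.4, 47.8 and 42.1 CPM (-0.23, SE 0.07, adjusted p = 0.006304). Both genes were separate between tissues. Sdhb, with the iron-sulfur clusters, had -0.002 (SE 0.06, adjusted p = 0.9802), and Sdhc, the other anchor, 0.05 (SE 0.07, adjusted p = 0.57). Sdhaf2, which inserts the flavin into Sdha, was lower by -0.15 on the log2 scale (SE 0.06, adjusted p = 0.04505), a call lost in all 6 fits that left out 1 library (adjusted p up to 0.116); its exons share 94 bases with Cpsf7 on the opposite strand. The call of Sdhd was lost without mLN replicate 3 (adjusted p = 0.0569).

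Of the 8 nuclear subunits of complex III tested, 3 were higher and 1 lower. Uqcrh, the hinge protein that binds cytochrome c1, was at 75.8, 84.5 and 84.3 CPM in spleen and 103, 91.8 and 87.9 CPM in mLN (0.21, SE 0.06, adjusted p = 0.002141). Uqcr10, a small accessory subunit, rose by 0.30 (SE 0.10, adjusted p = 0.01298), and Uqcrc2, a large core-protein subunit, by 0.18 (SE 0.05, adjusted p = 0.001306). Uqcr11 was lower (-0.29, SE 0.10, adjusted p = 0.02157), with overlapping tissues; its call was lost without spleen replicate 1, spleen replicate 2 or mLN replicate 2 (adjusted p up to 0.162), and that of Uqcr10 without spleen replicate 3 or mLN replicate 1 (up to 0.0924). Uqcrfs1, the Rieske iron-sulfur protein, had -0.02 (SE 0.06, adjusted p = 0.7959).

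In complex IV, 1 of 12 nuclear subunits tested was higher and 2 were lower. Cox5b (chr1:36691449-36693681, ENSMUSG00000061518), a zinc-binding subunit on the matrix side, fell from 60.5, 73.4 and 71.1 CPM to 56.2, 58.5 and 53.1 CPM. Its log2 fold change was -0.29 (SE 0.07, adjusted p = 0.0004538), with no overlap between tissues. Ndufa4, with 48.2, 45.5 and 50.3 CPM in spleen and 52.4, 55.5 and 53.5 CPM in mLN, rose by 0.16 (SE 0.07, adjusted p = 0.04357), a call lost without spleen replicate 1, spleen replicate 2, mLN replicate 2 or mLN replicate 3 (adjusted p up to 0.179). Cox4i1 had 0.02 (SE 0.03, adjusted p = 0.7032).

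Cox6b2, known as the testis form of subunit 6b, was present at trace level in spleen. Its rounded expected counts were 38, 63 and 23 in spleen and 2, 18 and 2 in mLN, or 2.18, 3.84 and 1.38 CPM against 0.133, 1.01 and 0.162 CPM. The fitted log2 fold change was -2.38 (SE 0.55, adjusted p = 0.000632), and leaving out 1 library moved it to between -3.998 (without mLN replicate 2) and -1.92. Within the Cox6b pair, Cox6b2 made up 4.87% ± 2.47 of TPM in spleen and 0.916% ± 0.960 in mLN (SD, n = 3). Cox6b1, the ubiquitous form, was at 60.4, 58.7 and 63.8 CPM and at 59.98, 59.2 and 58.6 CPM (-0.04, SE 0.06, adjusted p = 0.6384). The other tissue-restricted isoforms were hardly detected. Cox4i2 had 0, 0 and 4 counts in spleen and 1, 1 and 0 in mLN, and Cox7a1, the heart and muscle form, had 2, 0 and 0 and then 4, 0 and 2. Cox7b2, Cox8b, Cox8c, Ndufa4l2 and a second row of the name Atp5o, a readthrough model, were listed at 0 in all 6 libraries. These 7 rows did not pass the filter on low counts and were not tested. Of their ubiquitous partners Ndufa4 rose, as given above, and the others did not pass the test: Cox4i1 is given above, Cox7a2 had -0.11 (adjusted p = 0.339), Cox7b 0.13 (adjusted p = 0.1802) and Cox8a -0.03 (adjusted p = 0.7507).

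Cox7a2l (chr17:83501918-83517330, ENSMUSG00000024248), a factor that joins complex III to complex IV in supercomplexes, had the smallest adjusted p of the nuclear members. It was at 195, 194 and 188 CPM in spleen and 268, 248 and 231 CPM in mLN, with a log2 fold change of 0.37 (SE 0.04, adjusted p = 7.756e-10). Mice of the strain used are known to carry a shortened form of this protein. The lowest mLN library was above the highest spleen library.

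Of the 16 nuclear structural subunits of ATP synthase tested, 2 were higher, with a median log2 fold change of 0.02 and a range of -0.08 to 0.18. The 5 subunits of the catalytic F1 head (Atp5a1, Atp5b, Atp5c1, Atp5d and Atp5e) lay between -0.03 and 0.07, and neither edgeR, DESeq2 nor limma with voom called any; edgeR's unadjusted p was under 0.05 for none of them. Atp5b was at 637, 635 and 618 CPM in spleen and 640, 622 and 653 CPM in mLN. Atp5h, subunit d of the stalk, rose from 88.8, 84.0 and 86.1 CPM to 97.3, 96.9 and 94.6 CPM (0.16, SE 0.05, adjusted p = 0.007031). Atp5j2, the membrane subunit f, rose by 0.18 (SE 0.06, adjusted p = 0.0213), a call lost without spleen replicate 3 (change between 0.10 and 0.23 over the 6 fits) or mLN replicate 1 (adjusted p up to 0.226). The proton-carrying c-ring is encoded by 3 genes for 1 mature protein. Atp5g1, Atp5g2 and Atp5g3 took 18.8% ± 0.727, 39.6% ± 2.10 and 41.7% ± 1.85 of the family's TPM in spleen and 17.6% ± 0.926, 40.7% ± 0.459 and 41.7% ± 0.845 in mLN (SD, n = 3). None of the 3 passed the test (adjusted p of 0.3578, 0.7529 and 0.9915). The pseudogene Gm10175 is identical to Atp5g2 over 645 bases and held 2.39% to 7.45% of the pair's counts.

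The promoters of nuclear members are known for sites of NRF1, GABP (an ETS-family factor) and YY1, and the promoter letters were searched for these. Of 109 distinct member symbols, 78 had an entry among RefSeq promoters (build GRCm38.p6, 250 bases before to 50 after the start). On either strand, the NRF1 motif core GCATGCGC was in 12 of 78 (15.4%), against 3.05% of all 27025 genes with a promoter. The GABP motif CCGGAAG was in 21 (26.9% against 9.93%), and the YY1 motif AAGATGGCG in 8 (10.3% against 1.64%). Neither base composition nor expression in these cells was matched between members and all genes. Among the 21 matched members that the test called, 2 held the NRF1, 6 the GABP and 2 the YY1 motif. Upstream stretches of 150 bases, ending at or before the gene start, are shown for members that rose (Ndufaf4, Uqcrh) or were lower (Sdhd); they were chosen after their values were seen, and capitals mark the NRF1 motif and its reverse complement in Ndufaf4 and the reverse complement of the GABP motif in the other pair. Their positions are chr4:24897933-24898082 on the plus strand, chr4:116075072-116075221 on the minus strand and chr9:50603850-50603999 on the minus strand:
Ndufaf4: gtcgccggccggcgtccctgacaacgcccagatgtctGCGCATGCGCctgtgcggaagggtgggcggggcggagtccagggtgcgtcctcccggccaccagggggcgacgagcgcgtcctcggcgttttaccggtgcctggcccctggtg
Uqcrh: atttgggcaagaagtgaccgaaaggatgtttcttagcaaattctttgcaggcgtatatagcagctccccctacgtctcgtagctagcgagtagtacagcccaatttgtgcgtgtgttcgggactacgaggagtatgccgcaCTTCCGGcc
Sdhd: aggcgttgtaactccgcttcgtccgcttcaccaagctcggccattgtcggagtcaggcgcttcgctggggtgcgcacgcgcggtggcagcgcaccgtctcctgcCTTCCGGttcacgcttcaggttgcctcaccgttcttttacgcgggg

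Genes that build, express and regulate the complexes were counted from lists set beside the members, with 45.5% of all genes called and a median of -0.002 as the measure. Of 24 complex IV assembly genes 3 were higher, with a median log2 fold change of 0.05; Cox10, which makes the heme of complex IV, rose from 20.4 ± 0.329 to 29.96 ± 3.04 CPM (0.56, SE 0.09, adjusted p = 4.29e-06). Of 10 further complex I assembly genes 1 was lower, Dmac2 (-0.23, SE 0.05, adjusted p = 0.000211). Of 8 tested genes for complex III assembly, cytochrome c1 and cytochrome c, 4 were higher and 1 lower. Cyc1, cytochrome c1 itself, was lower (-0.15, SE 0.06, adjusted p = 0.0291), and Ttc19, a complex III assembly factor, rose (0.41, SE 0.12, adjusted p = 0.00392). Of 9 genes of ATP synthase assembly and inhibition, 1 was higher and 1 lower. The lower one was Atpif1, the inhibitor that stops ATP synthase from running backwards, which fell from 32.7 ± 1.71 to 13.9 ± 2.69 CPM (SD, n = 3; -1.22, SE 0.11, adjusted p = 9.71e-13). Its change was larger than that of any member but Cox6b2. Atpif1 is known to be needed for heme synthesis in maturing red cells, and all 19 erythroid markers were lower in mLN, as given above; their part in its value was not tested.

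Expression of the mitochondrial genome was also listed. Of 17 genes of mitochondrial RNA processing and decay, 8 were higher (median 0.19), led by Fastkd5 (0.43, SE 0.13, adjusted p = 0.0064) and Trmt10c, a subunit of the enzyme that cuts transcripts at their 5′ transfer RNA ends (0.37, SE 0.08, adjusted p = 0.000312). Of 18 genes of mitochondrial DNA upkeep and transcription, 2 were higher and 1 lower; Polrmt, the mitochondrial RNA polymerase, rose by 0.15 (SE 0.06, adjusted p = 0.0469). Among 13 nuclear regulators of respiratory genes, 5 were higher and 1 lower. Pprc1, a coactivator of NRF1, rose from 91.4 ± 3.99 to 120 ± 6.61 CPM (0.39, SE 0.05, adjusted p = 5.73e-09), Ppargc1b rose by 0.46 (SE 0.13, adjusted p = 0.00306), and the nuclear receptor gene Esrra was lower (-0.24, SE 0.06, adjusted p = 0.00125). Of 78 mitochondrial ribosomal protein genes, 10 were higher and 3 lower (median 0.04), whereas 77 of 78 tested cytosolic ribosomal protein genes were higher (median 0.33).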

How the data were processed

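PolyA RNA of CD45+ cells was measured in 3 spleen and 3 mLN libraries. STAR, RSEM and the build mm10 are named per the submitters' processing notes; their versions, the annotation and the strand setting were not given in the sources used here. Per the file headers, the authors' tables hold an RSEM expected count (an estimate that divides shared reads), an effective length and a TPM value per gene. Expected counts were rounded. Identifiers were matched to GENCODE M21 (GRCm38, the same assembly as mm10; coordinates are 1-based), and 260 of 55487 had no symbol. edgeR 4.0.16 in R 4.3.3 (filterByExpr, TMM factors of 0.982 to 1.02, robust quasi-likelihood F-test, tissue as the only term) tested 14427 genes with Benjamini-Hochberg adjustment. The code was also run on simulated counts with the same dispersion for all genes and few, balanced changes. That run does not mimic the cell mixtures or the reads shared between copies, so it does not measure the error of these results. Standard errors come from the F statistic. Fold changes are mLN over spleen on the log2 scale. The deposited TPM served for levels between genes, and the deposited effective length for 1 alternative.

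Near-identical copies were sought with BLAST 2.17.0 among GENCODE transcripts (at least 97% identity over 150 bases). They were found for 7 mitochondrial and 18 nuclear members. Exons of 44 members overlap another gene, for 34 on the opposite strand, so their values are uncertain if strand was ignored.

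All mitochondrial members were named. Nuclear subunits were named by complex when called, with tissues not overlapping and at least 10 CPM (up to 4 rises and 4 falls in complex I, 3 and 3 in IV and V, 2 and 2 in II and III). Also named were up to 2 rises and 2 falls of assembly factors and of each list, the complex II subunits, isoform sets and untested members; other genes named were chosen after their values were seen. Members and lists were chosen with earlier results of these data known. Alternatives were other scalings, filters and tools (DESeq2 1.42.0, limma 3.58.1), an effective-length offset, a replicate block, a minimum fold of 1.2, leaving out each library, and copies summed with their genes, the last chosen after seeing the data.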

Additional observations from a re-analysis of the deposited data

Results flagged for a closer look

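Several rows outside the member rule had a mean of more than 3 expected counts per library. Of the chromosome 1 copies of mitochondrial genes, Gm10925 had a mean of 31530 expected counts per library, more than mt-Atp6 itself, and Gm28437 had 26170, more than mt-Co3. Gm10222 had 1090, Gm28438 1056, Gm28439 194 and Gm29216 42.9 expected counts per library on average. Gm28439, the copy of mt-Nd4, held 167.4, 489.9 and 507.6 expected counts in spleen and 0 in all 3 mLN libraries, while mt-Nd4 held 28852, 34918 and 24209 there. The change of Gm28439 did not pass (log2 fold change -11.5, SE 2.19, edgeR adjusted p = 0.0615). Gm10925 was called higher in mLN (0.15, SE 0.02, edgeR adjusted p = 3.3286e-07).

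The mitochondrial ribosomal RNAs averaged 2732 (mt-Rnr1) and 10530 (mt-Rnr2) counts per library in these polyA libraries. mt-Rnr2 was higher in mLN, at 585, 597 and 607 CPM in spleen and 716, 738 and 745 CPM in mLN (log2 fold change 0.30, edgeR adjusted p = 1.2615e-12), whereas mt-Rnr1 had 0.02 (adjusted p = 0.70204).

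Other related nuclear rows lie outside the rule. Ndufb1-ps, which the annotation lists as non-coding, averaged 210 counts and was lower in mLN (15.1 ± 0.757 and 11.2 ± 1.61 CPM, SD, n = 3; adjusted p = 0.0057018). Ndufb4c, a pseudogene identical to Ndufb4 over 390 bases, averaged 68.3 counts. Cox6a2, the heart and muscle form of subunit 6a, averaged 15.2 counts, with 17, 23 and 33 in spleen and 12, 4 and 2 in mLN (log2 fold change -1.84, adjusted p = 0.0063679).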

How the results depend on the processing

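Cox7a2l, Ndufaf4 and Cox6b2 passed in every alternative that tested them (Cox6b2 was not tested under the filter of 5 CPM). Cox5b, Ndufb3, Ndufv3, mt-Co1, mt-Co2, mt-Nd1, mt-Nd2 and mt-Nd4 passed in all that tested them except the test against a minimum fold of 1.2. One alternative left out the mitochondrial genes and so did not test them. The test against a minimum fold is described next. That test called 3442 genes (1269 higher and 2173 lower), 2 nuclear members higher and 1 lower, and 0 mitochondrial members higher. With library totals alone, 8 nuclear members were higher and 15 lower, 1 mitochondrial member (mt-Nd6) was lower, and the medians were -0.0314 (nuclear) and 0.07 (mitochondrial). An effective-length offset left 5 nuclear members higher and 2 lower, with a nuclear median of -0.00727. DESeq2 called 4 nuclear members lower, and limma with voom 1 mitochondrial member lower. With totals that leave out immunoglobulin, T-cell receptor, haemoglobin and mitochondrial genes, the nuclear share differed by -0.0112 percentage points (mLN minus spleen) instead of -0.00480. With copies summed, 10 mitochondrial members were higher, the mitochondrial share differed by 0.155 instead of 0.103 percentage points, and mt-Nd3 (0.15), mt-Nd4l (0.27) and mt-Co3 (0.11) turned positive. The cause of these shifts was not tested, except that summing removes the split between gene and copy.

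Leaving out each library in turn, the nuclear members called lower numbered 3 to 6, those called higher 11 to 14, and the nuclear median ran from -0.00340 to 0.0289; the lowest count was without spleen replicate 2 and the negative median without spleen replicate 1. Same-numbered libraries did not deviate together (correlations of 0.027, 0.028 and -0.008), so the numbers were not taken as pairs. With the replicate block, 29 members were called, 28 of them shared with the fit without it (Sdhaf2 lost, Atp5s gained). The standard error of the log2 fold change was 0.02 for mt-Co1, at 7689 to 8912 CPM, and 0.25 for Ndufaf2, at 2.87 to 5.40 CPM. For mt-Co3, which shares reads with a copy, it was 0.87 at 74.6 to 912 CPM.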

Other observations

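Of 17 citric acid cycle genes outside the rule, 4 were higher and 3 lower in mLN: Pdha1 and Pdhb, subunits of pyruvate dehydrogenase, rose by 0.34 (edgeR adjusted p = 4.16e-09) and 0.26 (adjusted p = 5.34e-05), while fumarase, Fh1, was lower (-0.32, adjusted p = 4.26e-06) and so was citrate synthase, Cs (-0.13, adjusted p = 0.00322). Of 13 coenzyme Q synthesis genes 3 were lower, among them Coq8a (56.8 ± 2.41 and 37.0 ± 3.49 CPM, SD, n = 3; -0.61, adjusted p = 2.57e-09) and Coq4 (-0.64, adjusted p = 0.00837). Of 24 genes of the outer membrane and protein import, 3 were higher and 4 lower. Hspe1, the mitochondrial co-chaperonin, rose by 0.41 (adjusted p = 3.47e-08), and Chchd10 was lower (-0.48, adjusted p = 9.11e-05). Over all genes tested, 45.5% were called.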
